A study of Mus musculus with 12 samples.

Results

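The complement genes C1qa, C1qb, C1qc, C3, C4a, C4b, C3ar1, C5ar1 and Serping1 were followed in frontal cortex of an amyloid mouse model with and without Hras. These 9 genes were chosen by name, and all 9 were found by symbol among the 54532 genes of the count table and were among the 17307 genes with enough counts to be tested. The data were asked whether these genes differed with the loss of Hras, whether they differed between males and females, and how closely they followed each other and the markers of the cells that make them.

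Complement is a cascade of blood and tissue proteins that tags and removes microbes, debris and, in the developing and diseased brain, synapses. C1q, built from the chains encoded by C1qa, C1qb and C1qc, starts the classical pathway, C4 and C3 are cleaved in turn and attach to the target, and the released fragments act on the receptors encoded by C3ar1 and C5ar1. Serping1 encodes the C1 inhibitor, which blocks the proteases of the first step. In brain, C1q and both receptors are known mainly from microglia and C4b and C3 also from astrocytes, and C1q gathers around amyloid plaques.

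All 12 mice carried the APP/PS1 transgenes and were 9 months old. The controls (APP/PS1) and the mice that also lacked Hras (APP/PS1/Hras-/-, here called knockouts) were each 3 males and 3 females, which gives 4 groups of 3, and each mouse gave 1 mRNA library. The replicate numbers used below only name the mice and pair none of them. The sources used here do not give the promoters of the transgenes, the strain background or the deleted part of Hras, and no mice without the transgenes were analysed here.

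Total counts ran from 13984692 to 20174131 per library. Hras itself, a small GTPase gene on chromosome 7, had 82.8 CPM (counts scaled to library size; range 73.7 to 101.7, n = 6) in APP/PS1 mice and 21.3 CPM (range 19.4 to 23.4, n = 6) in knockouts, with no overlap (p = 0.00216 in a two-sided exact permutation test, which cannot give a smaller value with 6 mice against 6). Neuron, astrocyte, oligodendrocyte and microglia markers were all present in every library, as a cortical sample should hold. The libraries differed in neighbouring tissue: summed choroid plexus markers ran from 12.7 to 3130 CPM and summed striatal markers from 223 to 903 CPM. Female 2 of the APP/PS1 mice and male 1 of the knockouts stood apart from the rest on the first principal component of an earlier analysis, so results are also given without them where that mattered.

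The C1q genes lie side by side on the minus strand of chromosome 4 (GRCm38) within 18.7 kb: C1qb at 136880129 to 136886187, C1qc at 136889804 to 136893065 and C1qa at 136895917 to 136898803. Promoter windows of 300 bases, 250 before to 50 after the gene start, were taken from RefSeq (GRCm38.p6) and were matched for 5 of the 9 genes, C1qb, C1qc, C3, C3ar1 and C5ar1. The windows of C1qb and C1qc are shown because the levels of these genes moved together more closely than those of any other pair among the 9, as described below. The capitals mark GAGGAA, the core letters of sites of PU.1, a myeloid transcription factor, read on either strand.
C1qb, chr4:136886151-136886450, minus strand: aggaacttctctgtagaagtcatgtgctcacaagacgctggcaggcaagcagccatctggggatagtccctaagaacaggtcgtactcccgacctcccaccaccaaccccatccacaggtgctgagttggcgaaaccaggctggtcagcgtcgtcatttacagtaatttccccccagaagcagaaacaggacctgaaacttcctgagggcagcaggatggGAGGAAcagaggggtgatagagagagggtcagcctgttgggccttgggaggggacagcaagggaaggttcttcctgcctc
C1qc, chr4:136892865-136893164, minus strand: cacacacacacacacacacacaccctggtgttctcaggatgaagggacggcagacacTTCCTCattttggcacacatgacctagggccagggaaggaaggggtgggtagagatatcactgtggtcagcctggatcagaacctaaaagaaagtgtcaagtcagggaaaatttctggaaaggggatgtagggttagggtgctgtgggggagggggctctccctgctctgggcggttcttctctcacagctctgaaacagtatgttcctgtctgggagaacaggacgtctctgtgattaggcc
In C1qb the match lay 30 bases before the gene start on the gene's own strand. In C1qc it lay 193 bases before the start on the opposite strand, so that the strand printed reads TTCCTC. The letters GAGGAA occurred on either strand in 28.3% of all 32851 windows of this length, so a match is common. The windows of C3, C3ar1 and C5ar1 held no GAGGAA, and none of the 5 windows held TTCNNNGAA, the letters of STAT sites (8.3% of all windows), or the interferon response element, GAAA repeated with any 2 bases between (3.44% of all windows).

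C4a and C4b are near-identical neighbours on the minus strand of chromosome 17 (GRCm38), C4b at 34728380 to 34743882 and C4a at 34809092 to 34823464, with 65.2 kb between them. C4b encodes the main C4 protein of the mouse, and the annotation gives C4a (the gene for sex-limited protein) as a processed transcript. Transcript C4a-207 (5371 bases) and transcript C4b-201 (5379 bases) were aligned over 5367 bases with 207 mismatches, an identity of 96.1%. Reads can be told apart only where the copies differ, as in this 60-base stretch of exon 21 of 41, the capitals marking the 13 bases that differ.
C4a, chr17:34816086-34816145, minus strand: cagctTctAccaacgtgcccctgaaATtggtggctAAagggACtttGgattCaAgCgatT
C4b, chr17:34735430-34735489, minus strand: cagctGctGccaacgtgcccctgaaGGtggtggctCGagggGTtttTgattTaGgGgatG
Only 8.27% of all 150-base windows of C4a occurred unchanged in C4b, and the longest run shared by both was 433 bases. The sources used here do not say how reads that align to both copies were counted, so the split between C4a and C4b carries that uncertainty. C3 also lies on chromosome 17, at 57203970 to 57228136, C3ar1 on chromosome 6, C5ar1 on chromosome 7 and Serping1 on chromosome 2.

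Among the 9 genes, the C1q chains and C4b were the most abundant transcripts, and C3 and both receptors were scarce. Per kilobase of exon, the scale on which genes can be compared with each other, C1qa averaged 100.1 ± 26.5 CPM per kb (SD, n = 12), C1qb 77.5 ± 23.3, C4b 43.0 ± 9.71 and C1qc 38.6 ± 10.1. The levels of C4b and C1qc overlapped within their spread. Far below stood Serping1 at 3.58 ± 0.672 CPM per kb, C3ar1 at 1.49 ± 0.441, C4a at 1.38 ± 0.604, C5ar1 at 0.474 ± 0.167 and C3 at 0.315 ± 0.200. C3ar1 and C4a overlapped within their spread, as did C5ar1 and C3. C3 and C5ar1 rest on 339 and 255 reads in all 12 libraries together, so their values per mouse are coarse. Exon length here is that of all annotated exons of a gene merged, 1.931 kb for C1qc against 1.04 kb for C1qa and 1.088 kb for C1qb. The place of C1qc rests on this length, since before division C1qc averaged 74.45 CPM and C1qb 84.35 CPM.

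**Figure D1:**
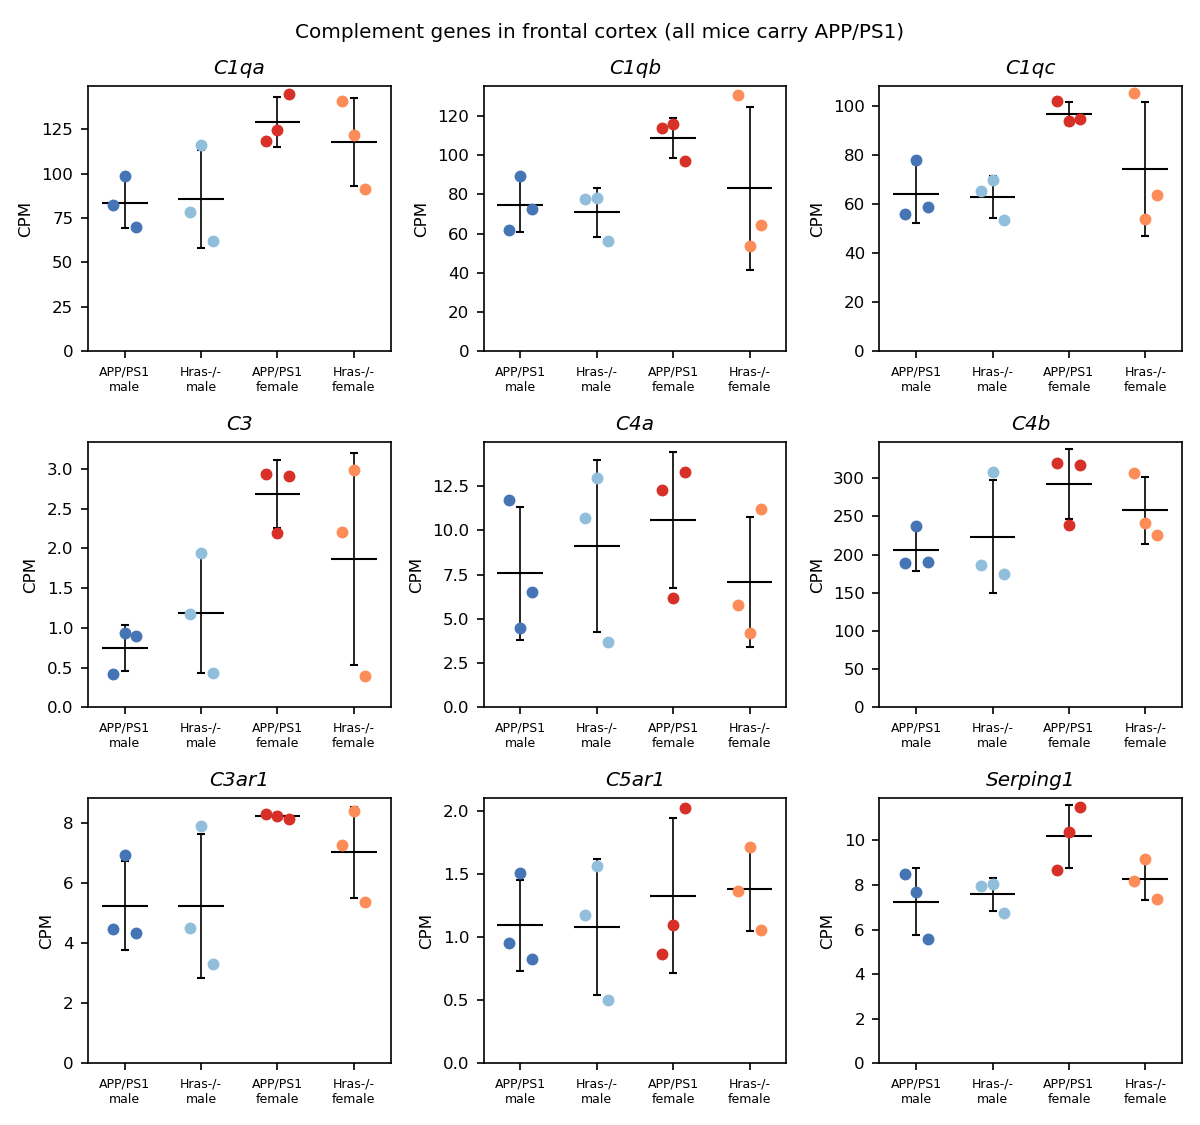
CPM (vertical axes, linear and starting at 0) of each complement gene in the 12 libraries, by genotype and sex; points are mice, the horizontal bar is the group mean and the whiskers are 1 SD (n = 3). APP/PS1 females sit above APP/PS1 males without overlap for all genes but C4a and C5ar1, while the knockout groups overlap.

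C1qa, the A chain of C1q, had 82.6, 98.7 and 69.7 CPM in APP/PS1 males 1 to 3 and 118, 124 and 145 CPM in the females. In the knockouts it had 78.7, 116 and 62.2 CPM in males and 141, 122 and 91.3 CPM in females. Every APP/PS1 female was above every APP/PS1 male, and the genotypes overlapped in both sexes.

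C1qb, the B chain, had 61.7, 89.3 and 72.8 CPM in APP/PS1 males and 114, 116 and 97.3 CPM in APP/PS1 females. Knockout levels were 77.9, 78.3 and 56.3 CPM in males and 131, 53.8 and 64.5 CPM in females. The knockout females thus held both the highest and the lowest value of the 12. C1qc, the C chain, shared this pattern, with 102, 93.6 and 94.4 CPM in APP/PS1 females against 105, 53.8 and 63.7 CPM in knockout females, and with 55.8, 77.8 and 58.9 CPM in APP/PS1 males against 65.2, 69.8 and 53.3 CPM in knockout males, the last of these being its lowest value.

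C1qb and C1qc kept nearly one ratio in every mouse, and C1qa did not follow them as closely. The ratio of C1qb to C1qc in CPM stayed between 1.0 and 1.24 in all 12 libraries (CV 7.97%). The ratio of C1qa to C1qb ran from 0.958 to 2.26 (CV 28.4%). It was highest in APP/PS1/Hras-/- female 2, where C1qa stood at 122 CPM and C1qb at 53.8 CPM. Over the 12 libraries, log2 CPM of C1qb and C1qc had a Pearson r of 0.969 (0.970 after the group means were subtracted), against 0.636 (0.502) for C1qa with C1qb and 0.743 (0.58) for C1qa with C1qc. These r describe libraries that share tissue content, and no test was made of them. The C1qb to C1qc ratio was 1.15 ± 0.0821 in APP/PS1 and 1.10 ± 0.0995 in knockouts (SD, n = 6 each), and the C1qa to C1qb ratio was 1.17 ± 0.203 and 1.39 ± 0.467, so each ratio's genotypes overlapped.

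**Figure D2:**
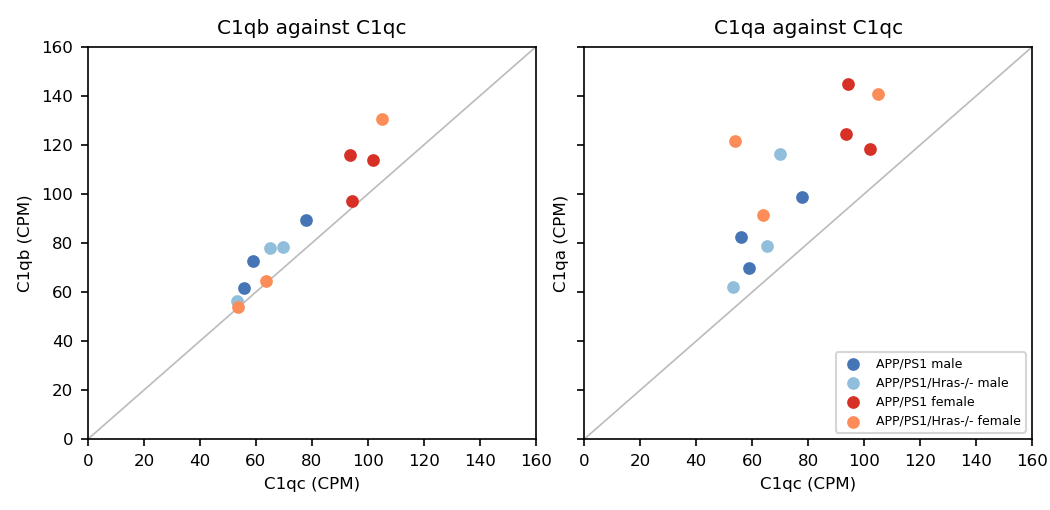
CPM of C1qb (left) and C1qa (right) against CPM of C1qc, 1 point per library, coloured by genotype and sex; the grey line marks equal CPM. C1qb lies along a narrow band at 1.0 to 1.24 times C1qc, and C1qa scatters above the line.

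The genes most like each chain also differed. The 3 tested genes with the largest r to C1qa over the 12 libraries were Trem2 (0.982), a microglial receptor, Csf3r (0.962), the receptor of granulocyte colony-stimulating factor, and Cst7 (0.962), a cystatin; Trem2 and Cst7 are also among the plaque microglia markers used below. For C1qb they were C1qc, the Toll-like receptor gene Tlr12 (0.894) and the translation factor gene Eif4g2 (0.869). For C1qc they were C1qb, Creg1 (0.917) and Tlr12 (0.913). Trem2 itself ran from 28.0 to 78.2 CPM in APP/PS1 and from 25.4 to 65.2 CPM in knockouts.

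C3, the central component on which all routes of activation meet, had 0.416, 0.933 and 0.894 CPM in APP/PS1 males and 2.94, 2.19 and 2.91 CPM in APP/PS1 females. The knockouts gave 1.17, 1.94 and 0.436 CPM in males and 2.21, 2.99 and 0.388 CPM in females. C3 was the member with the widest range, its highest library standing 7.70 times above its lowest. Both extremes were knockout females. Among its closest genes were Slc14a1 (r = 0.958), a urea transporter, and Vav1 (0.938), a signalling protein of blood cells and microglia.

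C3ar1, the receptor of the C3a fragment, had 4.46, 6.94 and 4.33 CPM in APP/PS1 males and 8.31, 8.24 and 8.14 CPM in APP/PS1 females. Among knockouts it had 4.51, 7.90 and 3.30 CPM in males and 7.27, 8.40 and 5.38 CPM in females. The APP/PS1 females were almost equal (CV 1.04%), while the knockout males had a CV of 45.6%. The closest genes were Clec7a (r = 0.952), a microglial lectin raised near plaques, Anxa3 (0.951), an annexin, and Pros1 (0.949), which encodes protein S.

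C5ar1, the receptor of C5a, had 0.951, 1.503 and 0.825 CPM in APP/PS1 males and 0.862, 1.09 and 2.02 CPM in APP/PS1 females. Values in the knockouts were 1.17, 1.56 and 0.498 CPM in males and 1.36, 1.71 and 1.05 CPM in females. All 4 groups overlapped. Its closest genes were Slfn8 (r = 0.903), Tpm4 (0.884), a tropomyosin, and Tnfrsf19 (0.863).

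Serping1, the C1 inhibitor, had 8.50, 7.67 and 5.57 CPM in APP/PS1 males and 8.67, 10.4 and 11.5 CPM in APP/PS1 females. In the knockouts it had 7.97, 8.06 and 6.72 CPM in males and 8.18, 9.18 and 7.38 CPM in females. It was the steadiest of the 9 genes, with a CV of 18.8% over the 12 libraries. Its closest genes were Spp1 (r = 0.948), which encodes osteopontin, Slc6a12 (0.915), a betaine transporter, and Mrc2 (0.902), a collagen receptor.

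C4b had 189.6, 238 and 189.7 CPM in APP/PS1 males and 319.8, 239 and 317 CPM in APP/PS1 females. Knockout levels were 187, 308 and 175 CPM in males and 307, 241 and 226 CPM in females. All 20 genes with the largest absolute r to C4b had a positive r of at least 0.906. On chromosome 17, which holds 4.71% of all tested genes, lay 0 of these 20. The closest were Adcy7 (r = 0.945), an adenylate cyclase, Man2b1 (0.945), a lysosomal mannosidase, and Arpc1b (0.944), an actin regulator.

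C4a behaved differently from its neighbour. It had 11.7, 4.46 and 6.53 CPM in APP/PS1 males and 12.3, 6.16 and 13.3 CPM in APP/PS1 females. The knockouts gave 10.7, 12.95 and 3.67 CPM in males and 5.78, 4.20 and 11.2 CPM in females. The values fell on either side of a gap of 4.19 CPM, with 6 libraries between 10.72 and 13.32 CPM and 6 between 3.67 and 6.53 CPM, and the next widest gap was 1.32 CPM. Each side held both genotypes and both sexes. C4a made up 1.72% to 5.82% of the C4a and C4b counts of a library, and its log2 CPM had an r of only 0.347 with that of C4b.

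Of the 20 genes with the largest absolute r to C4a, 8 lay on chromosome 17, which as a whole holds 4.71% of all tested genes. These 8 lay between 23836785 and 34344645. They were Decr2 (r = -0.963), Rps18 (-0.921), Rnps1 (-0.920), Glo1 (0.909), H2-Ea-ps (0.889), Rps2 (-0.885), Btbd9 (0.882) and Prss41 (0.867). The closest by positive r were Gm10260 on chromosome 13 (0.953), and Gm9825 (0.939) and Atp6v0c-ps2 (0.938) on chromosome 6, of which the latter pair are annotated as processed pseudogenes. These genes were found by their likeness to C4a, so their values are a description and carry no test.

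H2-Ea-ps, a class II histocompatibility gene that some laboratory strains do not express, had 0 counts in each of the 6 libraries with low C4a, which allows up to 3 counts in each. In the other 6 libraries it had 3 to 21 counts, 0.166 to 1.04 CPM. Glo1, which encodes glyoxalase 1, ran from 93.5 to 113 CPM in the 6 libraries with high C4a and from 62.3 to 71.8 CPM in the others. Gm10260 ran from 33.3 to 37.0 CPM and from 0.142 to 0.829 CPM in the same libraries. C4b did not divide this way, since its values of 187 and 189.6 CPM and of 317 and 319.8 CPM all came from libraries with high C4a. What sets the 6 libraries apart was not tested.

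**Figure D3:**
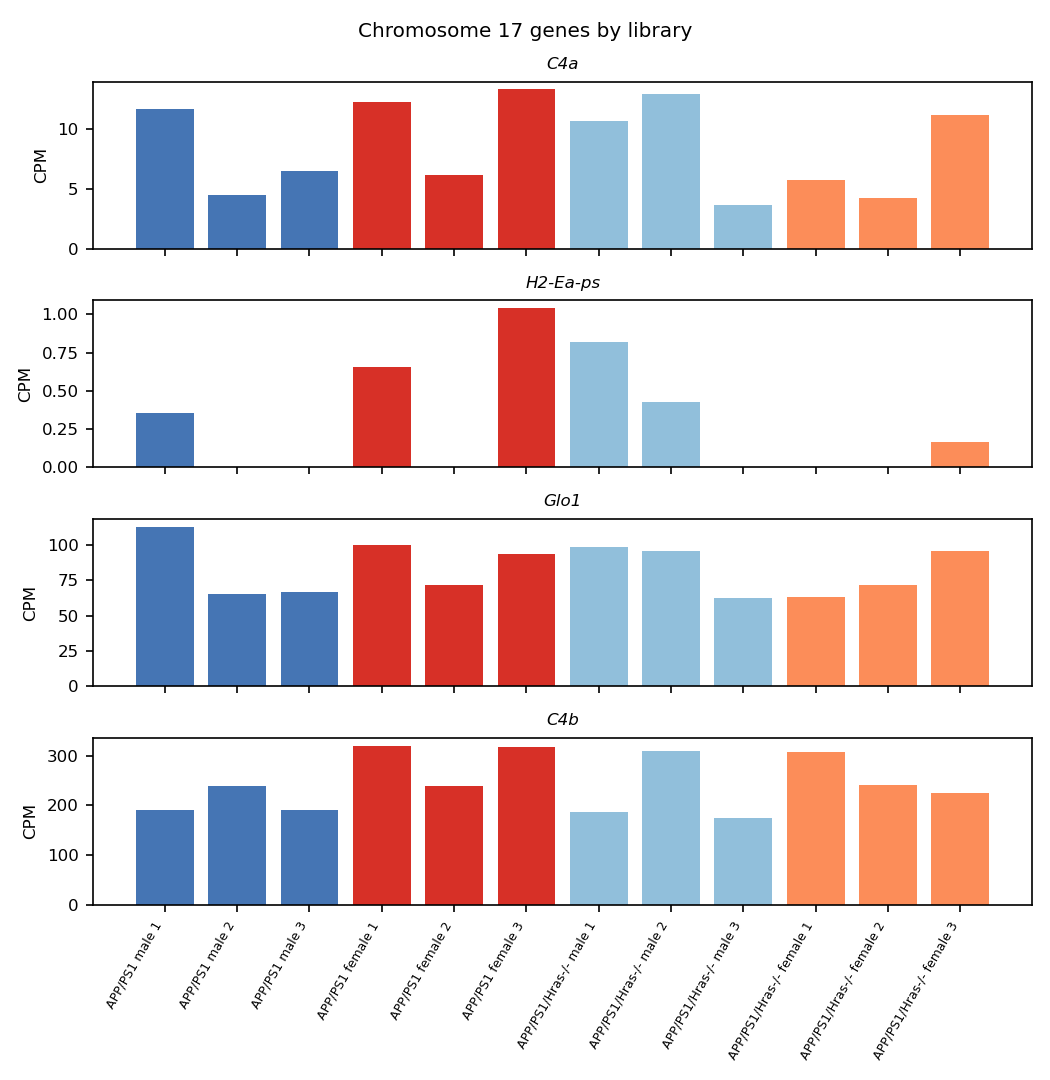
CPM (bars, axes starting at 0) of C4a, H2-Ea-ps, Glo1 and C4b in the 12 libraries, coloured by genotype and sex. The same 6 libraries are high for C4a, H2-Ea-ps and Glo1, while C4b follows another order.

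Loss of Hras was not accompanied by a detected change of any of the 9 complement genes. Over both sexes, C1qb had 91.8 ± 21.7 CPM in APP/PS1 and 76.9 ± 28.3 CPM in knockouts, and C1qc had 80.4 ± 19.5 and 68.5 ± 19.1 CPM (SD, n = 6 each). C4b had 248.9 ± 58.2 and 240.6 ± 57.4 CPM, and C1qa 106 ± 28.0 and 102 ± 29.4 CPM. All 9 genes overlapped between genotypes, where 0.0636% of all tested genes were higher and 0.052% lower in every knockout than in every control.

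By the quasi-likelihood test of edgeR, 0 of the 9 genes passed an adjusted p of 0.05 for genotype across sexes, where 0.0173% of all tested genes passed. An unadjusted p below 0.05 was reached by 0 of the 9 with edgeR, DESeq2 or limma-voom, and by 1.68% of all tested genes in edgeR. The log2 differences, knockout minus APP/PS1, were -0.23 (SE 0.206) for C1qb, -0.21 (SE 0.157) for C1qc, -0.05 (SE 0.155) for C1qa and -0.03 (SE 0.151) for C4b, and the adjusted p was 1 for each of the 9. The 95% interval of C4b ran from -0.36 to 0.30 and that of C1qa from -0.39 to 0.29. For C1qb it ran from -0.69 to 0.22. The scarce C3 was far less certain, at -0.02 with an interval from -1.04 to 0.998.

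Some of these differences shifted with RNA integrity (RIN) in the model, or without APP/PS1/Hras-/- female 1, the knockout with the most C1qb and C1qc. With RIN in the model the difference was -0.393 (SE 0.221) for C1qb, -0.346 (SE 0.163) for C1qc and -0.402 (SE 0.434) for C3 (adjusted p = 1 for each in edgeR). Whether the levels depend on RIN was not tested. Without that female it was -0.427 for C1qb (unadjusted p = 0.03 and adjusted p = 1 in edgeR) and -0.334 for C1qc (unadjusted p = 0.0375 and adjusted p = 1 in edgeR). She was singled out by her C1qb and C1qc values, so the p-values without her are a description. With other single libraries left out, the weakest differences were -0.113 for C1qb and -0.106 for C1qc.

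The remaining differences were -0.15 for C4a, -0.12 for C3ar1, -0.12 for Serping1 and 0.01 for C5ar1. The median of the 9 was -0.12, against 0.00 for all tested genes, and 8 of 9 were negative, as were 48.9% of all tested genes. The sign of C1qa, C3, C4a, C4b and C5ar1 turned when single libraries were left out, DESeq2 gave C3 a difference of 0.03, and limma-voom gave C5ar1 a difference of -0.00488. The p-values set each difference against the spread between the mice sampled. In bulk tissue, fewer cells of a type and less RNA per cell cannot be told apart.

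Within males 0 of the 9 genes passed in edgeR (0.0116% of all tested genes did), and 0 had an unadjusted p below 0.05 by edgeR, DESeq2 or limma-voom (3.91% of all tested genes did in edgeR). C3 had the largest difference, 0.67 (SE 0.662), from 0.748 ± 0.288 CPM among APP/PS1 males to 1.18 ± 0.75 CPM among knockout males (SD, n = 3 each). The other genes lay between -0.07 and 0.28, with 5 of 9 positive and a median of 0.04, where 48.5% of all tested genes were negative. RIN was 8.6 to 8.7 in knockout males and 7.8 to 8.3 in APP/PS1 males, without overlap. When RIN was added to the model the signs of C1qa (-0.12, SE 0.486), C3 (-1.08, SE 1.26) and C4b (-0.28, SE 0.426) turned. That of C4a did not, at 1.68 (SE 0.982). Without RIN the SE was smaller, at 0.229 for C1qa and 0.662 for C3. In these males the model can hardly tell RIN and genotype apart.

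Within females, 8 of the 9 genes had lower means in the knockouts, and none passed the test. C1qc averaged 96.7 ± 4.65 CPM among APP/PS1 females and 74.2 ± 27.2 CPM among knockout females, a log2 difference of -0.38 (SE 0.220, unadjusted p = 0.111 and adjusted p = 0.991 in edgeR). Serping1 was 10.2 ± 1.42 and 8.25 ± 0.905 CPM (SD, n = 3 each), a difference of -0.31 (SE 0.172, unadjusted p = 0.0997 and adjusted p = 0.991 in edgeR). C1qb differed by -0.39 (SE 0.298), C3 by -0.55 (SE 0.579) and C4a by -0.57 (SE 0.544). Without APP/PS1/Hras-/- female 1, C1qb differed by -0.88 (unadjusted p = 0.000422 and adjusted p = 0.575 in edgeR) and C1qc by -0.718 (unadjusted p = 0.00051 and adjusted p = 0.602 in edgeR). As above, that mouse was singled out by its C1qb and C1qc values, so these p-values are a description. The weakest differences with another library left out were -0.157 for C1qb and -0.194 for C1qc. With RIN in the model Serping1 differed by -0.413 (unadjusted p = 0.0305 and adjusted p = 0.82 in edgeR) and C3 by -0.18. Again 0 of 9 passed in edgeR (0.0116% of all tested genes did), and 0 had an unadjusted p below 0.05 by edgeR, DESeq2 or limma-voom (3.81% of all tested genes did in edgeR). The median of the 9 was -0.31, and 8 of 9 differences were negative, as were 49.5% of those of all tested genes.

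Microglia and astrocyte markers had the same sign in knockout females. All 12 homeostatic microglia markers had negative differences (median -0.28), as did all 15 markers of microglia near plaques (median -0.40) and all 12 astrocyte markers (median -0.15). In edgeR 0 of each list passed, as did 0.0116% of all tested genes. Also negative were all 12 leptomeningeal fibroblast (median -0.29), all 10 choroid plexus (median -2.08) and all 10 striatal markers (median -0.38). Positive were 8 of 8 oligodendrocyte and 8 of 9 neuron markers. Summed homeostatic markers were 825 to 896 CPM in APP/PS1 females and 650.5 to 787 CPM in knockout females, and plaque markers were 951 to 1170 and 663 to 915 CPM. The part of any of these cell types in the complement values of females was not tested.

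The genotype effect was not found to differ between the sexes. For the interaction 0 of the 9 genes passed in edgeR, as did 0% of all tested genes, and 0 of 9 had an unadjusted p below 0.05 by edgeR, DESeq2 or limma-voom (7.21% of all tested genes did in edgeR). The smallest p among the 9 was that of Serping1 (log2 difference of differences -0.37, SE 0.246, unadjusted p = 0.158 and adjusted p = 0.708 in edgeR). C3 had the largest value, -1.22 (SE 0.879). With RIN in the model the interaction of C3 turned to 0.897 (SE 1.56), those of C1qa, C1qb, C1qc, C4b and C3ar1 turned positive as well, and that of Serping1 was -0.969 (unadjusted p = 0.0336 and adjusted p = 0.517 in edgeR). C4a moved the other way, from -0.85 (SE 0.771) to -2.62 (SE 1.28, unadjusted p = 0.0711 and adjusted p = 0.569 in edgeR). Without APP/PS1/Hras-/- female 1 the interaction was -0.804 for C1qb (unadjusted p = 0.00562 and adjusted p = 0.758 in edgeR) and -0.683 for C1qc (unadjusted p = 0.00546 and adjusted p = 0.758 in edgeR). Because that mouse was singled out by its C1qb and C1qc values, these p-values too are a description. Other single omissions gave interactions as weak as -0.0802 for C1qb and -0.16 for C1qc.

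Mean levels of all 9 complement genes were higher in females than in males, with no single gene past the adjusted threshold. C1qa was 84.7 ± 19.9 CPM in males and 123.5 ± 19.1 CPM in females, C3ar1 5.24 ± 1.77 and 7.62 ± 1.17 CPM, and C3 0.964 ± 0.561 and 2.27 ± 0.993 CPM (SD, n = 6 each). C4b was 214.5 ± 50.8 CPM in males and 275 ± 44.2 CPM in females. For C1qa and C3, 5 of 6 females lay above every male, and for C1qb, C1qc, C3ar1 and Serping1 it was 4 of 6. The share of all tested genes with such partial separation was not computed. All 9 genes overlapped between the sexes, where 0.179% of all tested genes were higher in every female than in every male.

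Female minus male, all 9 log2 differences were positive, where 49.4% of all tested genes were negative, and 0 of 9 passed in edgeR, where 0.0693% of all tested genes passed. C1qa differed by 0.54 (SE 0.155, unadjusted p = 0.00457 and adjusted p = 0.761 in edgeR). C3 differed by 1.21 (SE 0.459), C3ar1 by 0.53 (SE 0.198), C1qc by 0.42 (SE 0.158), C1qb by 0.39 (SE 0.206), C4b by 0.36 (SE 0.151) and Serping1 by 0.30 (SE 0.129), all with an adjusted p of 0.989 in edgeR. An unadjusted p below 0.05 was reached by 6 of 9 genes (C1qa, C1qc, C3, C3ar1, C4b and Serping1), as by 4.65% of all tested genes. The number was 7 with DESeq2 and 5 with limma-voom. These 6 genes moved together over the same 12 mice, with r from 0.522 (C1qc with Serping1) to 0.94 (C1qa with C3ar1). Counts out of 9, here and in the other comparisons, are therefore not counts of independent results. C5ar1, at 0.30, and C4a, at 0.07, were the genes of least certain sign, and C4a turned negative when some single libraries were left out. The median of the 9 was 0.39, against 0.00 for all tested genes.

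Among the APP/PS1 mice, 7 of the 9 genes were higher in every female than in every male, all but C4a and C5ar1, where 10.2% of all tested genes showed such a pattern. RIN separated the same mice without overlap, at 7.8 to 8.3 in the males and 8.5 to 8.6 in the females, as did summed neuron markers, at 6413 to 6937 and 4747 to 5811 CPM. Their part in the separation was not tested. C3 was 0.748 ± 0.288 CPM in males and 2.68 ± 0.425 CPM in females (SD, n = 3 each), a log2 difference of 1.83 (SE 0.628, unadjusted p = 0.0131 and adjusted p = 0.391 in edgeR). C3ar1 differed by 0.64, C1qa by 0.63, C1qc by 0.59, C1qb by 0.55, C4b by 0.51 and Serping1 by 0.49, and 0 of 9 passed, where 0.052% of all tested genes passed.

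Among the knockouts 0 of the 9 genes separated the sexes with females higher, where 3.14% of all tested genes did. RIN was lower in these females (8.3 to 8.5) than in the males (8.6 to 8.7), without overlap. Over both genotypes and with RIN in the model, all 9 sex differences were positive. They ran from 0.0576 (SE 0.426) for C4a to 1.05 (SE 0.408) for C3, with C1qa at 0.519. The part of RIN in the sex differences was not tested. Within the knockouts C3 differed by 0.61 (SE 0.614), C1qa by 0.46 (SE 0.229), C3ar1 by 0.41 and C5ar1 by 0.33. C1qc differed by 0.24, C1qb by 0.23, C4b by 0.21, Serping1 by 0.12 and C4a by -0.36. Again 0 of 9 passed in edgeR, where 0.0462% of all tested genes passed. The test of the difference between the genotypes' sex effects is the interaction given above, which no complement gene passed. These comparisons within a genotype were added after the data had been seen.

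**Figure D4:**
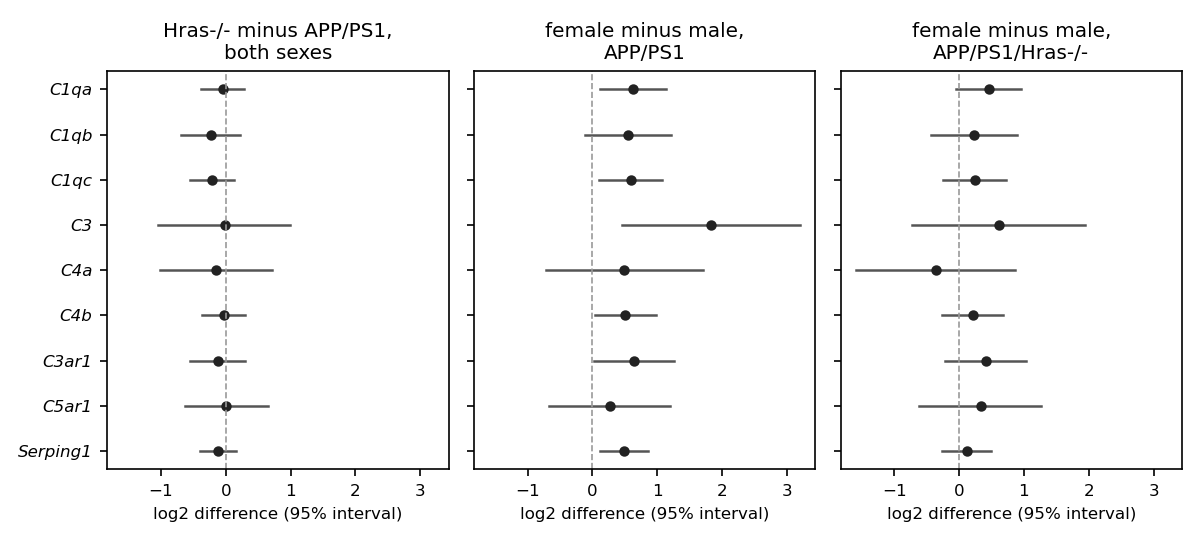
Log2 differences (points) with 95% intervals (lines) of the 9 genes: knockout minus APP/PS1 over both sexes (left), and female minus male among APP/PS1 (middle) and knockout mice (right). The genotype differences lie near 0, the APP/PS1 sex differences are all positive, with C3 at 1.83, and the knockout ones are smaller for 8 of 9 genes, C5ar1 being the exception.

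Microglia and astrocyte markers differed between the sexes in the same direction, and so did markers of other tissue. All 12 homeostatic microglia markers (median 0.36) and all 15 plaque microglia markers (median 0.71) were higher in females, as were 10 of 12 astrocyte markers (median 0.12). In edgeR 0 were called (0.0693% of all tested genes were). Unadjusted p was below 0.05 for 9, 10 and 3 of them, and for 4.65% of all tested genes. All 12 leptomeningeal fibroblast markers (median 0.30) and all 10 choroid plexus markers (median 1.2) were also higher in females. Lower in females were 9 of 9 neuron, 7 of 8 oligodendrocyte and 9 of 10 striatal markers. Summed homeostatic markers ran from 495.5 to 680.1 CPM in APP/PS1 males and from 538 to 809.6 CPM in knockout males, against 825 to 896 and 650.5 to 787 CPM in the females of the same genotypes. No marker of the microglia and astrocyte lists was at 0 in any library.

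Set against the mean log2 CPM of the homeostatic markers, the female minus male difference was 0.18 for C1qa, 0.20 for C3ar1, 0.02 for C1qc, -0.03 for C1qb and -0.06 for C5ar1. By these values C1qb and C1qc differed between the sexes about as much as the homeostatic markers did. The excess of C1qa and of C3ar1 was smaller than the SD of their values over the 12 libraries (0.22 and 0.245). No test was made of these values.

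Against the same markers, the genotypes did not differ detectably for the 5 microglial genes. The difference, knockout minus APP/PS1, was -0.29 for C1qb (two-sided exact permutation p = 0.197, 0.492 adjusted over the 5 genes), -0.24 for C1qc (exact p = 0.167, 0.492 adjusted), -0.16 for C3ar1 (exact p = 0.312), -0.08 for C1qa (exact p = 0.578) and 0.00 for C5ar1 (exact p = 0.996).

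The relative differences of C1qb and C1qc changed with the mouse left out. C1qc relative to the markers was 0.83 to 0.96 on the log2 scale in all 6 APP/PS1 mice, a narrow band. In the knockouts it was 0.69, 0.48 and 0.69 in males and 1.31, 0.18 and 0.64 in females, so 5 of 6 lay below the band and female 1 above it. Without APP/PS1/Hras-/- female 1 the difference was -0.36 for C1qc (p = 0.00216 in an exact permutation test, which allows no smaller value for 5 mice against 6) and -0.45 for C1qb (exact p = 0.00649), neither adjusted. This mouse was singled out by these same values. With it left out the other 5 knockouts all lay below the band, so the smallest p for C1qc followed from the choice. Both p-values are a description and not a test. The lowest values of C1qb and C1qc, 0.18 each, both belonged to APP/PS1/Hras-/- female 2. With other single libraries left out, the weakest differences were -0.16 for C1qb and -0.14 for C1qc. C1qb relative to the markers had 0.87 to 1.25 in APP/PS1 mice, and in the knockouts 0.95, 0.65 and 0.77 (males) and 1.62, 0.18 and 0.66 (females).

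Over the 12 libraries, most complement genes followed the microglial and the astrocyte marker scores. Each score is the mean log2 CPM of a marker list, and 32 relations were computed, 8 genes with 4 scores, with permutation p-values adjusted over all 32. C4a was left out because its values fall into separate clusters. The relation of C1qa to the plaque microglia score was r = 0.967 and rho = 0.958 (permutation p = 1e-05 for each, the smallest possible, and 0.000107 and 0.00032 adjusted). Without the 2 libraries farthest from the median score r was 0.947, and after the group means were subtracted it was 0.967.

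C3ar1 was likewise close to both microglial scores, with r = 0.939 (rho 0.923, permutation p = 1e-05 and 8e-05, 0.000107 and 0.000853 adjusted) for plaque and r = 0.884 (rho 0.860, permutation p = 0.00016 and 0.00062, 0.00128 and 0.00283 adjusted) for homeostatic markers. Leaving out the 2 farthest libraries gave 0.947 and 0.889. Group-centred r was 0.907 and 0.964. The astrocyte score was about as close to C3ar1, with r = 0.933 (rho 0.909, permutation p = 1e-05 and 0.00011, 0.000107 and 0.00088 adjusted, 0.947 group-centred). For C1qa r with astrocytes was 0.880 (rho 0.860, permutation p = 0.00032 and 0.00055, 0.00181 and 0.00283 adjusted, 0.842 group-centred).

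C4b and C3 also followed the astrocyte score as closely as the microglial ones. For C4b, r was 0.859 with astrocytes (rho 0.944, permutation p = 0.001 and 4e-05, 0.00291 and 0.00064 adjusted, 0.789 without the 2 farthest libraries, 0.771 group-centred). For C3, r was 0.879 with astrocytes (rho 0.804, permutation p = 0.00045 and 0.00237, 0.00206 and 0.00689 adjusted, 0.831 without the 2 farthest, 0.774 group-centred). With plaque microglia r was 0.843 for C4b and 0.868 for C3. The scores moved together, so these r do not assign a gene to a cell type.

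Serping1 was the only one of the 8 genes whose relation to the leptomeningeal fibroblast score passed, with r = 0.833 (rho 0.755, permutation p = 0.00182 and 0.00633, 0.00416 and 0.0135 adjusted, 0.689 without the 2 farthest libraries, 0.698 group-centred). That Serping1 differs in this from the other genes was not tested. Summed fibroblast markers ran from 91.9 to 143 CPM in APP/PS1 males and from 152 to 218 CPM in APP/PS1 females, the groups between which Serping1 also differed without overlap. In the knockouts they ran from 102 to 179 CPM in males and from 127 to 145 CPM in females, and their part in the Serping1 values was not tested. Serping1 also followed the plaque microglia score (r = 0.849, rho 0.888, permutation p = 0.00034 and 0.00032, 0.00181 and 0.00205 adjusted, 0.776 without the 2 farthest, 0.691 group-centred).

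C1qb and C1qc had weaker relations to the homeostatic score than C1qa, which had r = 0.842 (rho 0.818, permutation p = 0.00084 and 0.00174, 0.00291 and 0.00557 adjusted, 0.832 without the 2 farthest, 0.813 group-centred). For C1qb r was 0.537 (rho 0.566, permutation p = 0.0751 and 0.0598, 0.0961 and 0.087 adjusted, 0.488 without the 2 farthest, 0.285 group-centred) and for C1qc 0.662 (rho 0.650, permutation p = 0.0229 and 0.0259, 0.0366 and 0.0414 adjusted, 0.571 without the 2 farthest, 0.367 group-centred). Within the 6 APP/PS1 mice r was 0.941 for C1qb and 0.989 for C1qc, and within the 6 knockouts 0.185 and 0.232. The difference between these within-genotype values was not tested. The relation of C5ar1 to the plaque score (r = 0.725, rho 0.664, permutation p = 0.00708 and 0.022, 0.0133 and 0.0391 adjusted) fell to 0.404 without the 2 farthest libraries. Group-centred it was 0.896, and r was 0.578 within the APP/PS1 mice and 0.921 within the knockouts.

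**Figure D5:**
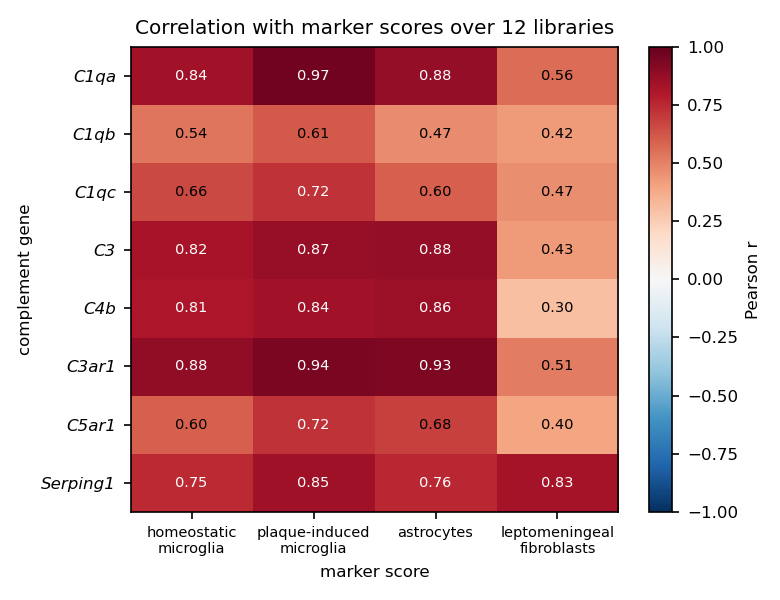
Pearson r (colour and printed value) over 12 libraries between log2 CPM of 8 complement genes (rows) and 4 marker scores (columns). C1qa and C3ar1 have the largest r with the plaque microglia score, at 0.967 and 0.939, and Serping1 has the largest with the leptomeningeal fibroblast score, at 0.833.

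The rest of the pathway also showed no called change with genotype. Of 53 other complement genes listed by role, 34 were tested, and 0 of 34 passed for genotype across sexes in edgeR (0.0173% of all tested genes passed). An unadjusted p below 0.05 was reached by 1 of 34 in edgeR, and by 1.68% of all tested genes. Differences were positive for 22 and negative for 12, with a median of 0.04. Within males, within females and for the interaction 0 of 34 passed in edgeR, DESeq2 or limma-voom (0.0116%, 0.0116% and 0% of all tested genes passed in edgeR). There 4, 1 and 4 of 34 had an unadjusted p below 0.05 in edgeR, as had 3.91%, 3.81% and 7.21% of all tested genes.

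The gene below 0.05 across sexes was C1s2, which encodes a C1s protease of the first step and lies on chromosome 6 at 124624625 to 124636085. C1s2 had 0.344 to 0.634 CPM (median 0.461, n = 6) in APP/PS1 and 0.519 to 1.56 CPM (median 0.974, n = 6) in knockouts, which overlap, and differed by 0.97 (SE 0.314, unadjusted p = 0.00776 and adjusted p = 1 in edgeR). The counts behind it were 5 to 25 per library. Its paralog C1s1 had 3.09 ± 0.25 and 4.46 ± 2.47 CPM (SD, n = 6 each), 0.52 apart (SE 0.344), and reads of these duplicated genes could have been split between them.

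Among the other initiators, Masp1, a lectin pathway protease, had 16.4 ± 1.54 and 16.0 ± 2.08 CPM in APP/PS1 and knockouts, and Colec12, a scavenger receptor collectin, 16.4 ± 5.12 and 15.2 ± 3.20 CPM. Of the convertase and alternative pathway genes, Cfp, which encodes properdin, had 18.4 ± 2.53 and 18.4 ± 1.62 CPM and C2 0.969 ± 0.413 and 0.758 ± 0.229 CPM. Of the terminal genes, C7 had 1.98 ± 0.642 and 2.15 ± 0.888 CPM and C8g 0.854 ± 0.201 and 0.920 ± 0.294 CPM. None of these genotype pairs differed beyond their spread.

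The receptors included Cr1l, a membrane regulator that binds C3b and C4b, with 18.9 ± 1.91 and 20.4 ± 1.89 CPM, and C5ar2, the second C5a receptor, with 1.17 ± 0.355 and 1.48 ± 0.290 CPM. The regulators were led by Clu, which encodes clusterin, at 924 ± 90.7 and 885 ± 62.0 CPM and Sez6l2, a neuronal regulator of complement, at 369 ± 32.8 and 380.4 ± 25.1 CPM. Sez6l had the smallest p of the regulators, a difference of 0.10 (SE 0.0616, unadjusted p = 0.114 and adjusted p = 1 in edgeR).

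Between the sexes, 24 of the 34 were higher in females and 10 lower, and 0 passed in edgeR (0.0693% of all tested genes passed). An unadjusted p below 0.05 was reached by 6 of 34 in edgeR, and by 4.65% of all tested genes. Itgax, the alpha chain of complement receptor 4 and one of the plaque microglia markers, had 6.18, 11.3 and 11.2 CPM in APP/PS1 males and 19.2, 23.8 and 29.6 CPM in APP/PS1 females. In knockout males it had 10.7, 14 and 6.04 CPM and in knockout females 24.9, 24.1 and 14.3 CPM. Every female was above every male, as for 0.179% of all tested genes.

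Itgax differed by 1.18 on the log2 scale, with an adjusted p of 0.285 in edgeR and 7.57e-05 in DESeq2, the only one of the 34 that DESeq2 called. The other alternatives over both genotypes gave Itgax adjusted p-values from 0.0603 to 0.75.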

How the data were processed

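The deposited table holds raw counts per Ensembl gene in 12 libraries, made by the authors from paired 150-base reads; per the labels, libraries came from a stranded mRNA kit. Per the submitters' processing notes, the tools included HISAT2 2.1.0, featureCounts, Trimmomatic 0.33 and FastQC 0.11.7. The sources used here state neither the strand setting nor how multiply aligned reads were counted. Identifiers were matched to GENCODE M21 on GRCm38, and 37 had no match (0.00986% of counts).

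CPM values were computed from the deposited counts with TMM factors. Tests used edgeR 4.0.16 (filterByExpr, quasi-likelihood F test, robust) in R 4.3.3 with Benjamini-Hochberg adjustment over 17307 genes and a threshold of 0.05. Genotype across sexes and sex came from an additive model, and effects within a sex and the interaction from a model of group means. Fold differences are log2, with 95% intervals from the model's degrees of freedom. Single values used exact permutation tests, and relations used 100000 permutations (scipy 1.17.1). Log2 CPM for scores and r used a prior count of 2. The longest transcripts of C4a and C4b were aligned globally with Biopython 1.88. Both R models were tested on simulated data. For genotype across sexes, 4% of genes changed by a log2 difference of 0.3 were recovered and 62% of those changed by 0.58. For genotype in females the shares were 0% and 40%. Differences of 0.3 or less would thus mostly go undetected.

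The members and lists were chosen with earlier results of these data known. Of the other complement genes, the text names by rule those called, and per role the 2 with the highest mean CPM and the 1 with the smallest p for genotype. For each of the 9 genes it names the 3 with the largest r, except for 1 gene not reported here. Alternatives were RLE scaling, DESeq2 1.42.0, limma-voom (limma 3.58.1), no filter, 1 CPM in 3 libraries, a threshold of 0.1, RIN as covariate, each sex alone, C4a and C4b added, a prior count of 0.5, and libraries left out.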

Additional observations from a re-analysis of the deposited data

Results flagged for a closer look

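C1qb reached 130.8 CPM and C1qc 105.1 CPM in APP/PS1/Hras-/- female 1, each far above the other 5 knockout mice, of which the highest had 78.3 CPM of C1qb and 69.8 CPM of C1qc. The gap was 0.681 of the knockouts' whole range for C1qb and 0.683 for C1qc, beyond Dixon's 95% critical value for 6 samples. Chance gives such a gap in about 1 in 20 groups, 18 groups were looked at, and C1qb and C1qc are not independent of each other. C1qa was not set apart in the same mouse, at 140.7 CPM with 122 CPM in the next.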

How the results depend on the processing

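None of the 9 complement genes was called in any of the 5 comparisons under any alternative run. The number of all tested genes called did move: with DESeq2 it was 7 for genotype across sexes (3 in edgeR), 4 in males (2), 5 in females (2) and 26 for sex (12), and without a filter on low counts 5 across sexes and 4 in females. With single libraries left out the count for sex ran from 9 to 20, the latter without male 2 of the knockouts. DESeq2 called 1 other complement gene for sex, Itgax. RLE scaling moved the median of all genes by -0.000404.

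The sign of several differences turned. Across sexes C3 was 0.0278 with DESeq2, and C5ar1 was -0.00488 with limma-voom and -0.0814 without the 2 libraries that stood apart. Without these 2, C3ar1 was 0.0969 in males, and C5ar1 was -0.0818 in females and -0.000859 for the interaction. With RIN as a covariate the male differences were -0.119 (C1qa), -1.08 (C3) and -0.281 (C4b), and the interactions 0.0164 (C1qa), 0.499 (C1qb), 0.252 (C1qc), 0.897 (C3), 0.19 (C4b) and 0.317 (C3ar1). C4a differed by -0.361 between the sexes within knockouts. C5ar1 relative to microglia was -0.00171 with a prior count of 0.5 and -0.0882 without the 2 libraries. The causes were not tested.

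With single libraries left out, genotype differences across sexes ran from -0.139 to 0.202 (C5ar1), -0.182 to 0.0256 (C4b), -0.31 to 0.298 (C3), -0.184 to 0.0298 (C1qa), -0.351 to 0.0131 (C4a), -0.427 to -0.113 (C1qb) and -0.334 to -0.106 (C1qc). In males they ran from -0.196 to 0.0747 (C1qb), -0.126 to 0.129 (C1qc), -0.0682 to 0.742 (C4a), -0.431 to 0.257 (C3ar1), -0.396 to 0.298 (C5ar1), -0.25 to 0.213 (C1qa), -0.0872 to 0.19 (Serping1) and -0.187 to 0.258 (C4b). In females they ran from -0.198 to 0.488 (C5ar1), -0.282 to 0.0229 (C1qa), -0.88 to -0.157 (C1qb), -0.718 to -0.194 (C1qc) and -1.07 to -0.0473 (C3). Interactions ran from -0.258 to 0.515 (C5ar1), -0.343 to 0.118 (C1qa), -0.443 to 0.00907 (C4b) and -0.49 to 0.199 (C3ar1), and the sex difference of C4a from -0.105 to 0.267. Relative to microglia, C1qb ran from -0.452 to -0.163, C1qc from -0.363 to -0.137 and C5ar1 from -0.137 to 0.142. The labels carry no replicate numbers. No paired analysis was possible because nothing ties mice of different groups.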
